A study of Mus musculus with 14 samples.

Results

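The 37 genes carried by mouse mitochondrial DNA (mtDNA) were followed in adult neural stem and progenitor cells, the cells that generate new neurons in the adult brain. They were taken as every gene whose symbol starts with mt- in the deposited annotation, which gave 37 of 53700 genes. They comprise 13 genes for proteins, 2 for ribosomal RNAs (rRNAs) and 22 for transfer RNAs (tRNAs). Poly-A selected RNA was sequenced in 14 libraries of C57BL/6 cells that form 4 groups. Yme1l KO cells (3 libraries) had received a Cre-GFP adeno-associated virus and GFP control cells (3 libraries) a GFP adeno-associated virus, and both were kept in FGF and EGF. The labels of both call the mouse wild-type and name no floxed allele, so the KO rests on the series title, the group names and the level of Yme1l1 given below. Quiescent cells (4 libraries) were treated with BMP4, and proliferating cells (4 libraries) with FGF and EGF. The labels give no age, and they do not say whether replicates are separate animals or cultures, so every p-value reflects the spread among these libraries alone, and that spread may be technical.

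Mitochondrial DNA is a small circle transcribed from both strands into long precursors. The tRNAs lie between most of the other genes, and cutting them out releases the messengers and rRNAs. The 13 proteins are all subunits of the oxidative phosphorylation complexes, while every factor that copies, transcribes, cuts, modifies or translates mtDNA products is encoded in the nucleus. YME1L is a protease of the mitochondrial inner membrane that faces the intermembrane space and remodels the mitochondrial protein content. Poly-A selection recovers a mitochondrial RNA through its short tail, so a level below is that of the tailed RNA. The ND6 messenger is known in human cells for carrying little or no tail, and tRNAs and rRNAs are not the target of the method.

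All 37 genes have the same coordinates on MT in the deposited annotation (GRCm39) and in the GENCODE M21 reference used for sequences. Of the 13 protein genes, 12 lie on the + strand of the reference, which reads like the transcripts of the heavy strand, and mt-Nd6 (MT 13552 to 14070) lies on the - strand. The protein genes are 204 to 1824 bases long with a GC content of 31.86% to 41.08%, and mt-Nd6 holds 28.13% G where the 12 others hold 5.88% to 16.12%. This asymmetry is visible in the first 60 bases of the light-strand transcript mt-Nd6 beside those of its neighbours mt-Nd5 (MT 11742 to 13565) and mt-Cytb (MT 14145 to 15288), shown because mt-Nd6 is the gene that departed from the rest in Yme1l KO cells. Capitals mark the annotated start codon.
mt-Nd6: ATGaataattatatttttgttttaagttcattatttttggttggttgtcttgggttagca
mt-Nd5: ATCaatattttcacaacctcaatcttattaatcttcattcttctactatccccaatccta
mt-Cytb: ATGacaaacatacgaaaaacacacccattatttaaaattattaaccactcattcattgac

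Several reading frames share bases, which bears on how fragments are assigned. The last 43 bases of mt-Atp8 are the first 43 of mt-Atp6, and the last 7 of mt-Nd4l are the first 7 of mt-Nd4. The ends of mt-Nd5 and mt-Nd6 share 14 bases on opposite strands. Capitals mark the start codon of mt-Atp6, the start codon of mt-Nd4 with the stop codon of mt-Nd4l, and the stop codons of mt-Nd5 and mt-Nd6. The authors' sample sheet lists the libraries as reverse-stranded, so reads of mt-Nd5 and mt-Nd6 were told apart by strand.
mt-Atp8 and mt-Atp6: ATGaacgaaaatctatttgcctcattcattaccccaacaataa
mt-Nd4l and mt-Nd4: ATGcTAA
mt-Nd5 end: ttaatctcgagTAA
mt-Nd6 end: ttactcgagatTAA

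A nuclear copy of part of mtDNA limits what can be read from 7 of the protein genes. The stretch chr1:24650616-24655278 (GRCm39, - strand, 4663 bases) carries 7 annotated pseudogenes. Of these, 5 have the same sequence as the mitochondrial gene over their whole length: Gm28661 (mt-Co2), Gm10925 (mt-Atp6), Gm28437 (mt-Co3), Gm10222 (mt-Nd4l) and Gm28439 (the first 876 bases of mt-Nd4). Gm28438 differs from mt-Nd3 by T3C, and Gm29216 differs from bases 1063 to 1545 of mt-Co1 by A1066T, counted from the first base of the mitochondrial gene with its base first. The first 40 bases of mt-Co3 and Gm28437 are shown as an example of a pair in which no base differs, followed by the bases around both substitutions in capitals.
mt-Co3: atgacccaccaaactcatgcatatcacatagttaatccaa
Gm28437: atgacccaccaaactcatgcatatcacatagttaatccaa
mt-Nd3: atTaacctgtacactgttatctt
Gm28438: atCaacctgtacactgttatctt
mt-Co1: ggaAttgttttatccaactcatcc
Gm29216: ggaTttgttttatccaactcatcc

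Counts of such pairs were divided by the authors' quantification in shares that moved from library to library. Over the 14 libraries, mt-Co2 received 5.51% to 20.3% of the counts of its pair and mt-Co3 received 3.78% to 42.3%. mt-Nd3 received 0% to 28.4%, and was listed at 0 in quiescent replicates 1 and 3 while Gm28438 was not. mt-Atp6 received 31.8% to 100% and mt-Nd4l 15.5% to 100%. mt-Co1 kept 90.2% to 97.5% and mt-Nd4 at least 99.7%. The copy of mt-Co1 spans 483 of its 1545 bases and that of mt-Nd4 876 of its 1378 bases. Each result is therefore given from the gene's own counts and from the sum of the gene and its copy, the second chosen after the split had been seen. Reads of the gene and of its copy cannot be told apart in that sum. Another 15 annotated genes resemble an mtDNA gene over at least 100 bases, and together they held 107.5 counts in all 14 libraries.

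**Figure D1:**
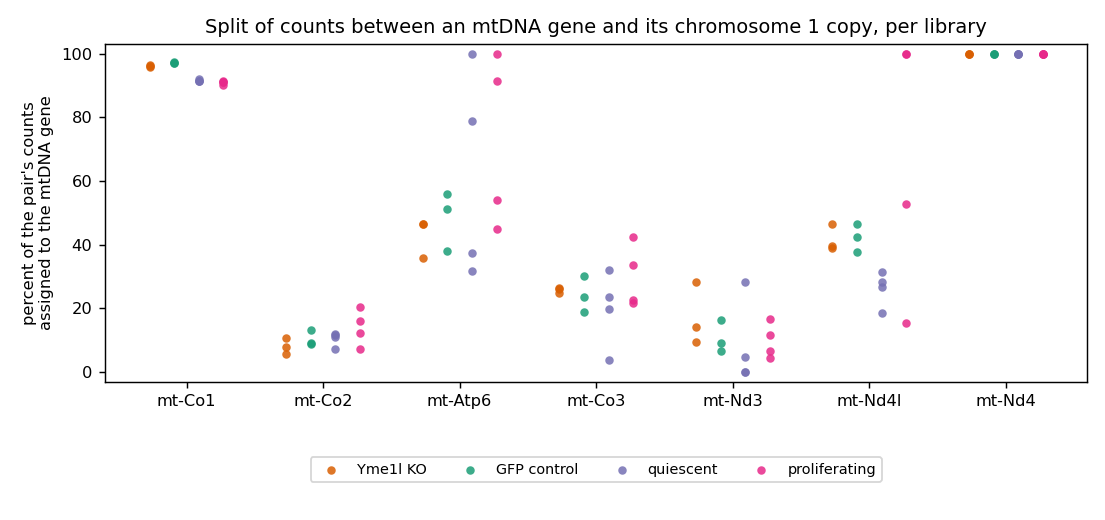
Percent of the counts of each pair that were assigned to the mtDNA gene rather than to its chromosome 1 copy, 1 point per library, coloured by group. mt-Co1 and mt-Nd4 lie above 90.2%, while mt-Atp6 and mt-Nd4l reach 100% in some libraries and fall to 31.8% and 15.5% in others.

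The libraries held 6475099 to 10320736 counts. A gene was tested if it passed edgeR's filter on low counts, and it was called when edgeR's quasi-likelihood test gave an adjusted p (Benjamini-Hochberg, over all genes tested) under 0.05. Both rRNAs and all 13 protein genes were tested in both comparisons, which makes 15 of 37. None of the 22 tRNA genes was tested: mt-Tm, the methionine tRNA, had 1 count in 1 Yme1l KO library, and the 21 others had no count in any library. A count of 0 allows up to 3 counts, which is 0.291 to 0.463 CPM (counts scaled for library size) across libraries, and covers counting error only. Of 12 neural stem and progenitor markers, 10 were above 1 TPM in Yme1l KO cells and 11 in each of the 3 other groups. Summed over their lists, 4 neuron, 3 oligodendrocyte, 5 microglia and 3 endothelial markers reached at most 2.49, 5.43, 6.08 and 4.01 TPM in any library. Mog (oligodendrocyte), Cldn5 (endothelium) and Cx3cr1 (microglia) were at 0 in every library. Foxj1, the marker used for ependymal cells, had 13.2 to 18.2 TPM in Yme1l KO and 10.8 to 13.7 TPM in GFP control libraries, and at most 37.0 TPM in quiescent and 45.4 TPM in proliferating libraries.

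Levels per length (TPM, copies added) differed widely between genes that share a precursor. In Yme1l KO libraries mt-Atp6 averaged 23300 ± 427 TPM, mt-Co2 22720 ± 401 TPM and mt-Atp8 21930 ± 2714 TPM (SD, n = 3), and these neighbours overlapped. GFP control libraries had the same 3 genes on top, at 20580 ± 1111, 19300 ± 551 and 20510 ± 4923 TPM (SD, n = 3). The place of mt-Atp8, the shortest messenger at 204 bases, rests on the length correction in TPM. It took 1.04% to 1.38% of messenger counts in Yme1l KO libraries, where mt-Atp6 (681 bases) took 10.96% to 11.2%. In GFP control libraries these shares were 1.07% to 1.59% and 11.63% to 12.05%. mt-Co1, the catalytic subunit of cytochrome c oxidase, followed at 18090 ± 565 TPM in Yme1l KO and 14800 ± 227 TPM in GFP control libraries. mt-Nd5, the longest messenger, was the lowest heavy-strand messenger at 3627 ± 76.6 TPM in Yme1l KO and 2639 ± 129 TPM in GFP control libraries. The order of the bottom 2 genes differed between those groups: mt-Nd6 was last in Yme1l KO libraries at 90.9 ± 12.1 TPM, below mt-Rnr1 at 183 ± 33.1 TPM, whereas in GFP control libraries mt-Nd6 stood at 151 ± 16.2 TPM, above mt-Rnr1 at 130 ± 1.58 TPM. The ranges of both genes did not overlap within either group.

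The order was another in the quiescent and proliferating libraries. mt-Co3, a core subunit of cytochrome c oxidase, ranked first with 3810 ± 1025 TPM in quiescent and 2979 ± 752 TPM in proliferating libraries (SD, n = 4), overlapping mt-Co1 in both. mt-Nd4 was the lowest heavy-strand messenger, at 368 ± 116 TPM in quiescent and 268 ± 82.3 TPM in proliferating libraries. mt-Nd6 was last in both groups, with 18.8 ± 8.98 TPM in quiescent and 16.5 ± 4.04 TPM in proliferating libraries, and overlapped mt-Rnr2 there. Between mt-Cytb in the fourth place and mt-Nd4 in the twelfth, every gene overlapped its neighbour in the order in both groups.

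**Figure D2:**
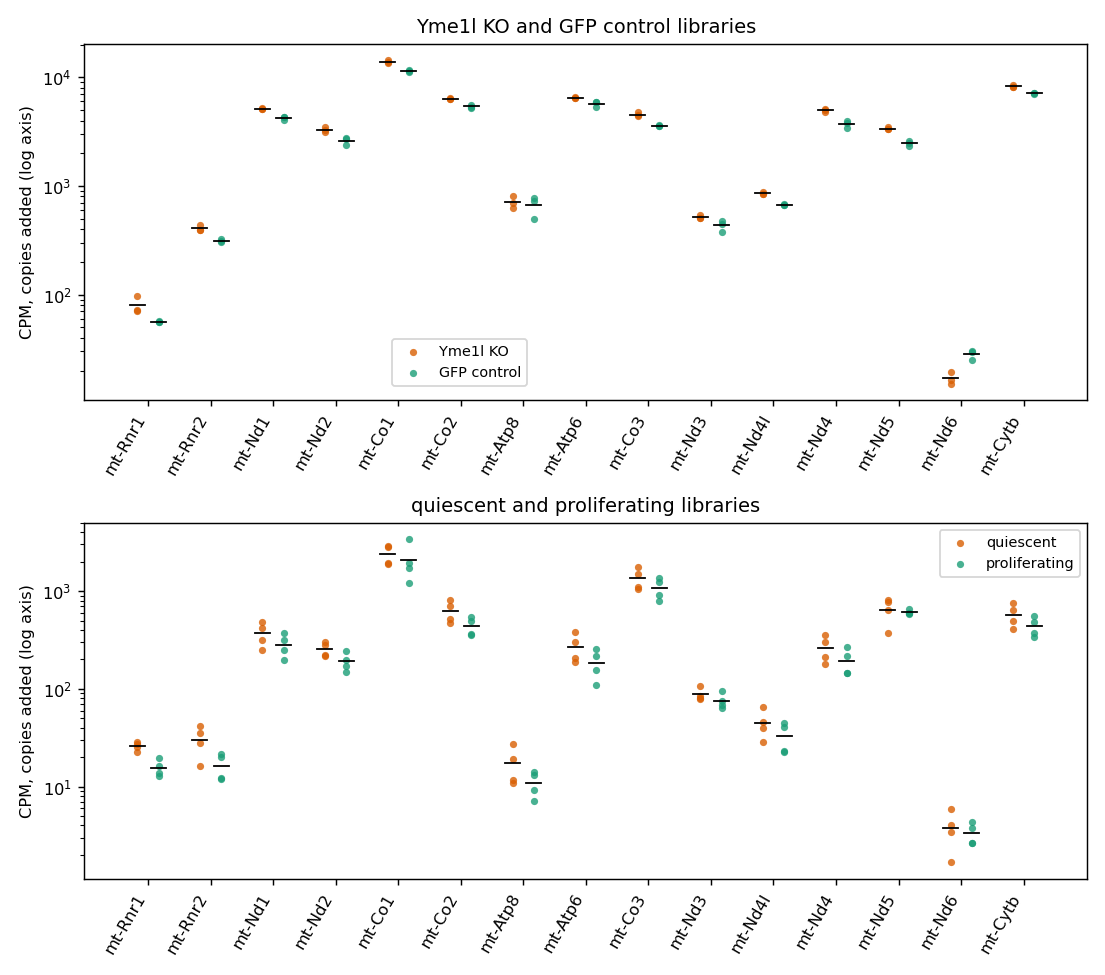
CPM of the 15 tested mtDNA genes in gene order along the genome, copies added, on a log axis, 1 point per library and a line at the group mean. In Yme1l KO libraries mt-Nd6 lies at 15.1 to 19.5 CPM, below every GFP control library, while most other genes lie above. Quiescent and proliferating points overlap for all genes but mt-Rnr1.

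The Cre-GFP and GFP libraries ask what loss of YME1L does to these transcripts. Yme1l1 had 25.7, 25.6 and 22.8 CPM in Yme1l KO libraries, against 135, 124 and 121 CPM in GFP control libraries. It was 5.13-fold lower (log2 fold change -2.36, SE 0.07, adjusted p = 5.89e-11 by edgeR), without overlap.

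In Yme1l KO cells both rRNAs and 11 of the 12 heavy-strand messengers, counted with their copies, were modestly higher, and the light-strand messenger mt-Nd6 was lower. From the genes' own counts 9 of the 15 were called higher and 1 lower, 5 were not called, and the median log2 fold change of the 13 messengers was 0.28. Over all 12625 genes tested 51.6% were called, 25.4% higher and 26.2% lower, around a median of 0.00. With the copies added, 13 were called higher and 1 lower, beside 51.7% called over all genes, and the 12 heavy-strand messengers ran between 0.08 and 0.46 with a median of 0.28. In the authors' deposited table, which is also Yme1l KO over GFP control, 10 of the 15 are higher and 1 is lower. The share it calls over all genes is not given here, so that count has no background beside it.

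Complex I, the NADH dehydrogenase, takes 7 of its core subunits from mtDNA. mt-Nd5, a proton-pumping subunit, had 3313, 3347 and 3460 CPM in Yme1l KO libraries, against 2466, 2573 and 2337 CPM in GFP control libraries. Its log2 fold change of 0.46 (SE 0.05, adjusted p = 5.87e-06) was the largest among the messengers called from their own counts. mt-Nd4, another membrane-arm subunit, had 4960.45, 4819 and 5066 CPM in Yme1l KO libraries and 3755, 3922 and 3444 CPM in GFP control libraries, a log2 fold change of 0.42 (SE 0.05, adjusted p = 2.13e-05). The groups did not overlap for either gene. mt-Nd1 and mt-Nd2, both of the membrane arm, were higher by log2 0.28 and 0.34, with adjusted p of 0.000236 and 0.000309. Without Yme1l KO replicate 3, the call of mt-Nd2 was lost (adjusted p = 0.0505). The 2 small subunits depended more on the copies. mt-Nd4l was called higher from its own counts (log2 0.33), though not without Yme1l KO replicate 3 (adjusted p = 0.102), and with Gm10222 added (log2 0.35). mt-Nd3 was not called from its own counts, where it had 72.6, 47.7 and 155 CPM in Yme1l KO libraries and 30.9 to 60.5 CPM in GFP control libraries. With Gm28438 added the pair had 510.2, 504 and 545 CPM in Yme1l KO libraries against 476, 451 and 374 CPM in GFP control libraries, and was called higher (log2 0.26, SE 0.08, adjusted p = 0.0169). Without Yme1l KO replicate 3 that call was lost (adjusted p = 0.251).

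Complexes III and IV and the ATP synthase showed the same direction where a call was made. mt-Cytb, cytochrome b of complex III, had 8189, 8061 and 8537 CPM in Yme1l KO libraries and 7111, 7203 and 7004 CPM in GFP control libraries, and was higher by log2 0.22 (SE 0.05, adjusted p = 0.00107). mt-Co1 had 13455, 12980.4 and 13765 CPM in Yme1l KO libraries against 11193, 11261 and 10881 CPM in GFP control libraries, and was higher by log2 0.27 (SE 0.05, adjusted p = 0.000202). Neither gene's groups overlapped. mt-Co2, which holds the binuclear copper centre, was not called from its own counts (log2 -0.10, adjusted p = 0.812). Its pair with Gm28661 was higher, with 6253 to 6412 CPM in Yme1l KO and 5270.1 to 5562 CPM in GFP control libraries (log2 0.24, adjusted p = 0.000364). mt-Co3 was not called from its own counts (log2 0.43, adjusted p = 0.0831) and its pair with Gm28437 was (log2 0.34, adjusted p = 3.71e-05). mt-Atp6, the proton-channel subunit of the ATP synthase, was at log2 -0.0041 from its own counts (adjusted p = 0.99) and its pair with Gm10925 was higher by 0.18 (adjusted p = 0.00532). Without GFP control replicate 3 the pair was no longer called (adjusted p = 0.0509). mt-Atp8, which shares its messenger with mt-Atp6 and has no annotated copy, although its last 43 bases are also the start of Gm10925, had 805, 692 and 624 CPM in Yme1l KO libraries and 777, 733 and 495 CPM in GFP control libraries. The groups overlapped, and its log2 fold change of 0.08 (SE 0.21) was not called.

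The rRNAs of the mitochondrial ribosome were both higher. mt-Rnr1, the small-subunit rRNA, had 70.1, 72.6 and 96.5 CPM in Yme1l KO libraries and 56.6, 55.9 and 57.3 CPM in GFP control libraries (log2 0.49, SE 0.11, adjusted p = 0.00411). Yme1l KO replicate 3 was the highest, and the groups did not overlap. mt-Rnr2, the large-subunit rRNA, had 396, 390.2 and 438 CPM in Yme1l KO libraries, against 309, 325 and 305 CPM in GFP control libraries (log2 0.38, SE 0.05, adjusted p = 4.87e-05).

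**Figure D3:**
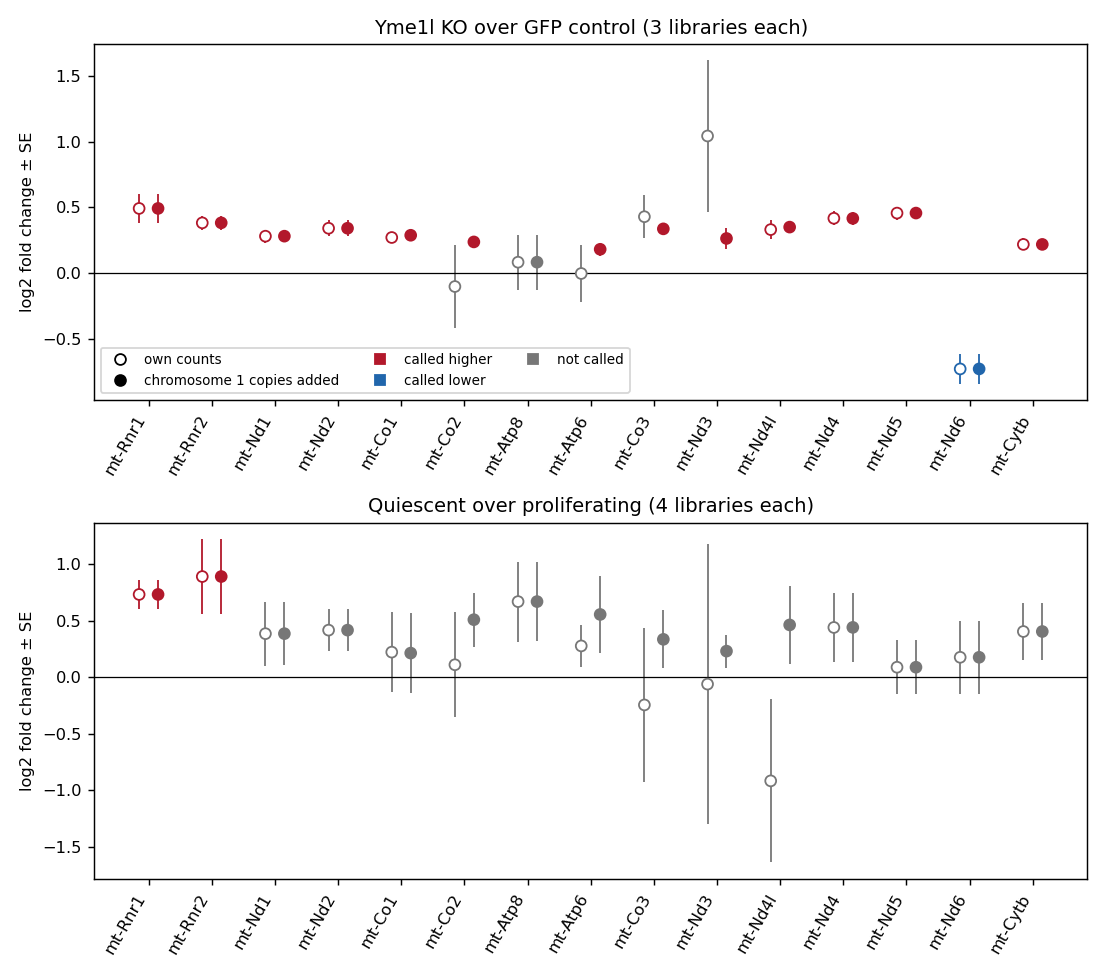
Log2 fold change with its standard error for the 15 tested mtDNA genes in genome order, from own counts (open) and with copies added (filled), red where called higher, blue where called lower and grey where not called. In Yme1l KO over GFP control, mt-Nd6 is the called gene below 0, and in quiescent over proliferating the called genes are mt-Rnr1 and mt-Rnr2.

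mt-Nd6, the complex I subunit whose messenger comes from the light strand, moved the other way. It had 155, 141 and 173 counts in Yme1l KO libraries, or 16.4, 15.1 and 19.5 CPM, against 291, 284 and 261 counts in GFP control libraries, or 29.6, 30.4 and 24.9 CPM. All Yme1l KO libraries were below all GFP control libraries, which gave log2 -0.73 (SE 0.11, adjusted p = 9.83e-05). It was called lower in each of the 17 alternatives computed, between -0.84 and -0.65. Relative to mt-Nd5, whose end it overlaps on the other strand, there were 4.96, 4.52 and 5.65 mt-Nd6 counts per 1000 mt-Nd5 counts in Yme1l KO libraries and 11.99, 11.8 and 10.7 in GFP control libraries. Per 10000 counts of the 12 heavy-strand messengers with copies added, mt-Nd6 averaged 2.91 ± 0.313 in Yme1l KO libraries and 5.88 ± 0.422 in GFP control libraries (SD, n = 3 each), a ratio of 0.495. The exact two-sided permutation test of that difference gave p = 0.1, the smallest that 3 against 3 libraries allow. mt-Nd6 has no counted copy: its similar gene on chromosome 4, Gm11408, held 0 counts.

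Within the mitochondrial messengers the shift was otherwise small. As a share of messenger counts with copies added, mt-Nd4, mt-Nd5 and mt-Co3 were higher without overlap in Yme1l KO libraries, and mt-Atp6, mt-Cytb and mt-Nd6 lower. The shares are parts of a whole, so a rise in some lowers others. mt-Atp6 and mt-Cytb were themselves higher in CPM with copies added (log2 0.18 and 0.22). For a gene without any difference, 3 against 3 libraries fail to overlap with a chance of 0.1. mt-Nd5 took 5.68%, 5.87% and 5.77% in Yme1l KO libraries and 5.04%, 5.24% and 5.06% in GFP control libraries. mt-Atp6 took at most 11.2% in Yme1l KO libraries and at least 11.6% in GFP control libraries. Without GFP control replicate 3, 10 genes did not overlap. Fewer control libraries remain there, so groups separate by chance more often than the 0.1 of 3 against 3. With all libraries kept, 3 genes did not overlap from own counts, without copies, in place of 6. The 37 genes together held 4.40% ± 0.058 of counts in Yme1l KO and 3.73% ± 0.172 in GFP control libraries, or 5.82% ± 0.110 and 4.90% ± 0.160 with copies added (SD, n = 3 each). The 95% Wilson interval of such a share in a single library was at most 0.0154 percentage points to either side.

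**Figure D4:**
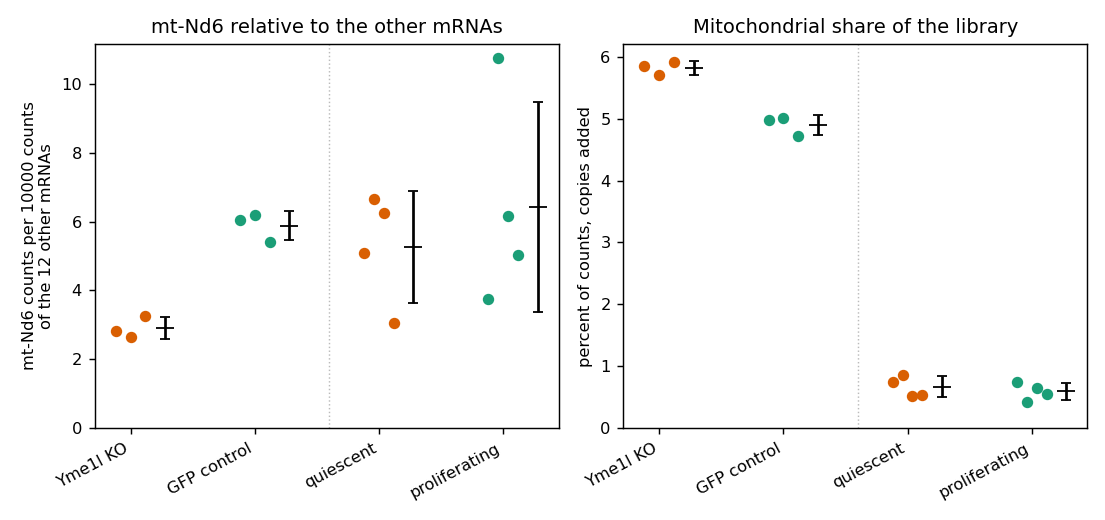
Left, mt-Nd6 counts per 10000 counts of the 12 other mitochondrial messengers; right, share of the library's counts held by the 37 genes with copies added. Points are libraries, and bars to the right of them the mean ± SD. Yme1l KO libraries lie at 2.66 to 3.26 mt-Nd6 counts and GFP control libraries at 5.40 to 6.20.

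Other measures also moved between these groups. The neural stem and progenitor markers summed to 4620 to 5020 TPM in Yme1l KO and 6100 to 6350 TPM in GFP control libraries, and nuclear genes under 42% GC held 5.57% to 5.80% of counts in Yme1l KO and 5.90% to 6.09% in GFP control libraries. Fewer cells of a kind and less RNA per cell cannot be told apart in these bulk libraries. The part of the marker levels in the mtDNA result was not tested. With the trend of fold change with GC content removed, 13 of the 15 genes were called higher and 1 lower with copies added. From own counts that fit called 9 of the 15 higher and 1 lower. Beside them stood 6557 of 12625 genes over all genes, 3262 higher and 3295 lower. The part of GC content in the mtDNA result was not tested.

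Of 92 tested nuclear genes that serve mtDNA, in 4 lists, 35 were lower, 7 were higher and 50 were not called in Yme1l KO cells. That is 38.04% lower and 7.61% higher, beside 26.2% and 25.4% over all genes. Of 27 genes for mtDNA transcription and replication 9 (33.3%) were lower and 4 higher (median log2 -0.11). Tfam, the factor that packages mtDNA and starts transcription, had 38.1, 33.9 and 32.9 CPM in Yme1l KO libraries and 46.0, 43.6 and 45.1 CPM in GFP control libraries (log2 -0.36, SE 0.08, adjusted p = 0.00128). That call was lost in limma on log2(TPM + 1) and in TPM-scaled counts (adjusted p = 0.128 and 0.13). Polrmt, the mitochondrial RNA polymerase, was not called (log2 -0.02, SE 0.09, adjusted p = 0.875). Endog, a mitochondrial nuclease, was higher (log2 0.57, SE 0.15, adjusted p = 0.00434), while Exog (-0.49), another nuclease, Top3a (-0.47), a topoisomerase, and Tefm (-0.45), the transcription elongation factor, were lower. The calls of Exog and Tefm were lost in DESeq2 (adjusted p = 0.0832 and 0.132) and without either GFP control replicate 2 or 3, that of Exog also without Yme1l KO replicate 2 and that of Tefm without Yme1l KO replicate 1, with adjusted p of at most 0.0939. Exog and Top3a were not called in limma (adjusted p = 0.0888 and 0.0656) or in TPM-scaled counts (0.116 and 0.0784). Slc25a33, a carrier of pyrimidine nucleotides into mitochondria, was not called (log2 0.18, adjusted p = 0.254).

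Of 24 genes for mitochondrial RNA processing and stability, 12 were lower, 1 was higher and 11 were not called in Yme1l KO cells (median log2 -0.22), beside 26.2% lower and 25.4% higher over all genes. Elac2, which cuts the 3′ ends of the tRNAs that punctuate the precursor, had 32.9, 33.7 and 28.4 CPM in Yme1l KO libraries and 50.5, 48.6 and 46.3 CPM in GFP control libraries (log2 -0.61, SE 0.08, adjusted p = 2.88e-05). Lrpprc, which stabilises the messengers and promotes their polyadenylation, had 81.5, 87.5 and 72.6 CPM in Yme1l KO libraries and 105, 100.4 and 101 CPM in GFP control libraries (log2 -0.34, SE 0.07, adjusted p = 0.000569). Fastkd3 (-0.58) and Tbrg4 (-0.53), of the FASTK family of mitochondrial RNA-binding proteins, and Trnt1 (-0.48), which adds the CCA end to tRNAs, were lower as well. Of 23 rRNA and tRNA modification genes 8 (34.8%) were lower and 2 higher (median -0.16), led by Nsun2 (-0.85), a cytosine methyltransferase of nuclear and mitochondrial tRNAs, Mrm3 (-0.69), Pus1 (-0.57) and Mettl15 (-0.44). Mettl15 lost its call in DESeq2 (adjusted p = 0.122), in limma (0.0502) and without Yme1l KO replicate 3 or GFP control replicate 1 or 3 (0.0917 to 0.105). Of 18 translation and insertion genes 6 (33.3%) were lower and 0 higher (median -0.14). The shares called lower in the transcription, modification and translation lists are near the 26.2% of all genes. The genes called included Mrpl58 (-0.52), Tsfm (-0.44), Tufm (-0.30) and Dap3 (-0.23), of which Dap3 was not called in TPM-scaled counts (adjusted p = 0.0518). The counts depended on the tool for 2 lists: DESeq2 called 8 of the transcription and replication genes in place of 13, and 3 of the modification genes in place of 10. Over all genes DESeq2 called 5042 of 21563 genes fitted, in place of 6509 of 12625 in the filtered main fit. Leaving out Yme1l KO replicate 1 or any GFP control library brought the modification genes to 6, beside 5571 to 6051 genes over all genes.

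The BMP4 and FGF-EGF libraries ask how the same transcripts differ between quiescence and proliferation. Yme1l1 itself had 4.84, 11.1, 3.90 and 4.88 CPM in quiescent libraries and 3.89, 3.09, 4.77 and 2.18 CPM in proliferating libraries. The groups overlapped, and its call (log2 0.85, SE 0.35, adjusted p = 0.0472) was lost in 5 alternative fits and when quiescent replicate 2 or proliferating replicate 1, 2 or 5 was left out, with adjusted p up to 0.152.

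Both rRNAs were called higher in quiescent cells, and no mitochondrial messenger was called. The call of mt-Rnr2 was lost without most single libraries, and that of mt-Rnr1 with the GC trend removed (edgeR adjusted p = 0.285). The calls made 2 of 15 genes higher and 0 lower, beside 65.4% called over all 12245 genes tested, 29.9% higher and 35.5% lower. With copies added the calls were the same in number, beside 65.5% over all genes, 30.0% higher and 35.5% lower. Of the 13 messengers, 0 had an unadjusted p under 0.05 in edgeR. DESeq2 called 2 of them, limma on log2(TPM + 1) and the TPM-scaled counts 1 each. Over all genes these called 7824 of 20940, 7178 of 12245 and 7050 of 12140. In the authors' deposited table, which is proliferating over quiescent, 4 of the 15 genes are called, all with a negative sign and therefore higher in quiescent libraries: mt-Rnr1, mt-Rnr2, mt-Nd2 and mt-Atp8. The share called over all genes there is not given here either. Scaling by library size alone changed the split over all genes to 2824 higher and 5219 lower, from 3664 and 4346, and moved the median of all genes from -0.01 to -0.15.

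mt-Rnr1 had 27.4, 28.3, 22.4 and 25.4 CPM in quiescent libraries and 19.5, 13.7, 12.9 and 16.4 CPM in proliferating libraries. All quiescent libraries were above all proliferating ones, by 1.66-fold (log2 0.73, SE 0.13, adjusted p = 0.00014). mt-Rnr2 had 35.3, 41.6, 16.2 and 27.7 CPM in quiescent libraries and 21.4, 12.3, 19.9 and 11.9 CPM in proliferating libraries. Quiescent replicate 3 lay within the range of the proliferating libraries, and the log2 fold change of 0.89 (SE 0.33, adjusted p = 0.0494) was lost when any library other than quiescent replicate 3 or proliferating replicate 1 was left out, with adjusted p up to 0.11, and with library-size scaling or no filter (adjusted p = 0.0763 and 0.101). Together the rRNAs made up 0.809% ± 0.107 of mitochondrial counts with copies added in quiescent and 0.573% ± 0.0525 in proliferating libraries (SD, n = 4 each). An exact two-sided permutation test gave p = 0.0286 for this share, the smallest that 4 against 4 allow. The same test gave 0.629 and 0.943 for mt-Nd6 per heavy-strand messengers and per mt-Nd5, and 0.714 for mt-Atp8 per mt-Atp6, all without adjustment. The share holds the same genes and libraries as the calls above, so its p adds no separate support.

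The messengers had wide and overlapping ranges. With copies added their log2 fold changes ran from 0.09 to 0.67 with a median of 0.40, beside a median of -0.01 over all genes, and none was called. mt-Co1 had 2839, 2899.9, 1933 and 1910.2 CPM in quiescent libraries and 3424, 1217, 1923 and 1705 CPM in proliferating libraries, copies added. Proliferating replicate 1 was the highest of all 8 and proliferating replicate 2 the lowest. mt-Nd2 came nearest to a call, with 299, 280, 216 and 223 CPM in quiescent libraries and 198, 171, 245 and 149 CPM in proliferating libraries (log2 0.42, SE 0.19, adjusted p = 0.0898). It was called without proliferating replicate 4 (adjusted p = 0.018). mt-Atp8 had the largest estimate, 0.67 (SE 0.35, adjusted p = 0.134), from 10.9 to 27.3 CPM in quiescent and 7.16 to 14.2 CPM in proliferating libraries. mt-Nd5 was spread unevenly: quiescent libraries held 765, 808, 641 and 371 CPM, and proliferating libraries 589 to 656 CPM. Without quiescent replicate 4, the lowest of all 8, mt-Nd5 was called higher with copies added (log2 0.34, adjusted p = 0.000587), while with library-size scaling its sign turned (-0.05). With copies added, mt-Co2 was called without quiescent replicate 3 (log2 0.68, adjusted p = 0.0441) and mt-Nd3 without proliferating replicate 5 (log2 0.35, adjusted p = 0.0149). mt-Nd1 (log2 0.38), mt-Nd4 (0.44), mt-Cytb (0.40) and mt-Co3 with its copy (0.33) were not called.

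Adding the copies turned the sign for 3 genes. From own counts mt-Nd4l was at log2 -0.92 (SE 0.72), mt-Co3 at -0.25 (SE 0.68) and mt-Nd3 at -0.06 (SE 1.24), and with the copies they stood at 0.46, 0.33 and 0.23. The signs of mt-Co3 and mt-Nd3 were unsettled from own counts too. With single libraries left out mt-Co3 ran from -0.435 to 0.17 and mt-Nd3 from -1.94 to 0.39, while mt-Nd4l stayed below 0 (-1.27 to -0.40). mt-Nd4l received 18.6% to 31.3% of its pair in quiescent and 15.5% to 100% in proliferating libraries. Without proliferating replicate 5, mt-Nd4l was called lower from its own counts (adjusted p = 0.0474), a call that is absent with the copy added.

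mt-Nd6 overlapped between the groups here. It had 4.03, 5.83, 3.41 and 1.67 CPM in quiescent libraries and 2.63, 4.30, 3.79 and 2.64 CPM in proliferating libraries, from 12 to 50 counts in quiescent and 23 to 39 counts in proliferating libraries. It stood at log2 0.18 (SE 0.33, adjusted p = 0.649). Per 10000 heavy-strand messenger counts it averaged 5.26 ± 1.62 in quiescent and 6.42 ± 3.05 in proliferating libraries (SD, n = 4 each), with an exact two-sided permutation p of 0.629. Whether this differs from the result in Yme1l KO cells was not tested, since the tables were quantified separately. No messenger's share of the messenger counts separated quiescent from proliferating libraries. The 37 genes held 0.525%, 0.595%, 0.362% and 0.383% of counts in quiescent libraries and 0.573%, 0.316%, 0.459% and 0.409% in proliferating libraries.

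Nuclear genes of like GC content were set beside these values. Nuclear genes under 42% GC held 0.667%, 1.03%, 0.680% and 0.703% of counts in quiescent libraries and 0.840%, 0.717%, 0.799% and 0.723% in proliferating libraries, and the groups overlapped. Quiescent replicate 2, the highest, also had the highest mitochondrial share, while quiescent replicate 1, the lowest, had the second highest mitochondrial share of its group. The 349 nuclear genes in the GC range of the 13 messengers had a median log2 fold change of 0.36 in quiescent over proliferating. That of the messengers with copies added was 0.40. Nuclear genes under 38% GC (40 genes) had a median of 0.38, and those of 38% to 41% GC (303 genes) 0.36. With the GC trend removed, 1 of the 15 genes was called beside 66.4% over all genes, and likewise 1 with copies added, beside 66.5%. In that second fit the median of the messengers was 0.0047, mt-Rnr1 was no longer called (log2 0.29, adjusted p = 0.305), and mt-Rnr2 was. The same 349 nuclear genes had a median of -0.09 in Yme1l KO over GFP control. By GC range, the 40 nuclear genes under 38% GC had a median of 0.014 there, and the 303 of 38% to 41% GC had -0.11. The part of GC content in the quiescent and proliferating mtDNA values was not tested.

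Markers of other cell types also differed between these groups, at low levels. The 5 microglia markers summed to 3.29 to 6.08 TPM in quiescent and 0 to 0.534 TPM in proliferating libraries, the 3 endothelial markers to 2.77 to 4.01 TPM in quiescent and at most 0.926 TPM in proliferating libraries, and the 3 oligodendrocyte markers to 2.06 to 5.43 TPM in quiescent and 0.883 to 1.93 TPM in proliferating libraries. None of these 3 sums overlapped between the groups. Every quiescent library was below every proliferating library in Foxj1, and the neuron markers overlapped. The neural stem and progenitor markers summed to 6360 to 7650 TPM in quiescent and 6480 to 6660 TPM in proliferating libraries. The part of the marker levels in the mtDNA values was not tested.

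Of 90 tested nuclear genes in the same 4 lists, 42 were lower, 8 were higher and 40 were not called in quiescent cells. That is 46.7% lower and 8.89% higher, beside 35.5% and 29.9% over all genes. Of 25 transcription and replication genes 12 (48.0%) were lower and 3 higher (median log2 -0.39). Tfam averaged 9.62 ± 0.93 CPM in quiescent and 14.97 ± 1.27 CPM in proliferating libraries (log2 -0.64, SE 0.13, adjusted p = 0.000431), and Polrmt 45.0 ± 4.57 CPM in quiescent and 62.2 ± 3.37 CPM in proliferating libraries (log2 -0.47, adjusted p = 5.2e-05). The call of Polrmt was lost in limma on log2(TPM + 1) and in TPM-scaled counts (adjusted p = 0.108 and 0.182). Slc25a33 was higher, at 35.9 ± 3.04 CPM in quiescent and 22.8 ± 1.75 CPM in proliferating libraries (log2 0.65, adjusted p = 9.4e-06). Mgme1 (-1.12), an exonuclease that trims replicating mtDNA, Top1mt (-1.12), the mitochondrial topoisomerase, Exog (-1.07) and Top3a (-0.77) were lower.

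Of 24 processing and stability genes 10 (41.7%) were lower and 0 higher in quiescent cells (median -0.20), beside 35.5% lower and 29.9% higher over all genes. Tbrg4 had 34.4, 31.7, 30.9 and 31.8 CPM in quiescent libraries and 76.2, 78.2, 77.8 and 76.9 CPM in proliferating libraries (log2 -1.26, SE 0.06, adjusted p = 3.57e-11). The groups lay far apart beside a spread of a few CPM within each. Fastkd3 (-0.90), Fastkd5 (-0.75) and Ptcd2 (-0.71), an RNA-binding protein required for mt-Cytb messenger maturation in mice, were also lower. Fastkd5 lost its call without quiescent replicate 1 or proliferating replicate 5 (adjusted p = 0.0522 and 0.0542). Lrpprc was not called (log2 0.10, SE 0.27, adjusted p = 0.769). Of 23 modification genes 13 (56.5%) were lower and 2 higher (median -0.48), led by Nsun2 (-1.27), Qtrt1 (-1.27), Pus1 (-0.90) and Mettl17 (-0.90). Of 18 translation and insertion genes 7 (38.9%) were lower and 3 higher (median -0.23), and the share called lower is near the 35.5% of all genes. Mrpl58 (-0.80), a peptidyl-tRNA hydrolase of the mitochondrial ribosome, Tsfm (-0.71) and Tufm (-0.68), both elongation factors, were lower and the initiation factor Mtif3 (0.37) was higher. With library-size scaling 10 were lower and 0 higher, and Mtif3 was not called (adjusted p = 0.092), nor was it in limma (0.0662). That scaling also moved all genes to 2824 higher and 5219 lower, from 3664 and 4346.

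Levels in the 2 tables stand far apart, and are set side by side without a test because the tables were quantified separately. The 37 genes held 3.54% to 4.43% of counts in the Yme1l KO and GFP control libraries and 0.316% to 0.595% in the quiescent and proliferating ones, although GFP control and proliferating cells are both labelled as kept in FGF and EGF. The log2 ratio of mean TPM in proliferating over GFP control was between -6.01 (mt-Atp8, the gene of lowest GC) and -1.84 (mt-Co3) for the 13 messengers, with a median of -3.87. Over 11443 nuclear genes the median of that ratio was 0.03, and over the 349 nuclear genes in the same GC range it was -3.41 with quartiles of -4.51 and -2.18. Nuclear genes of 56% GC and above had a median of 0.85. Across nuclear genes, the rank correlation of level with GC was 0.205 to 0.320 in the quiescent and proliferating libraries and -0.0618 to -0.0205 in the Yme1l KO and GFP control libraries. These are correlations over genes of single libraries, which are not independent replicates. Library preparation, sequencing run and cell state cannot be told apart between the tables.

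**Figure D5:**
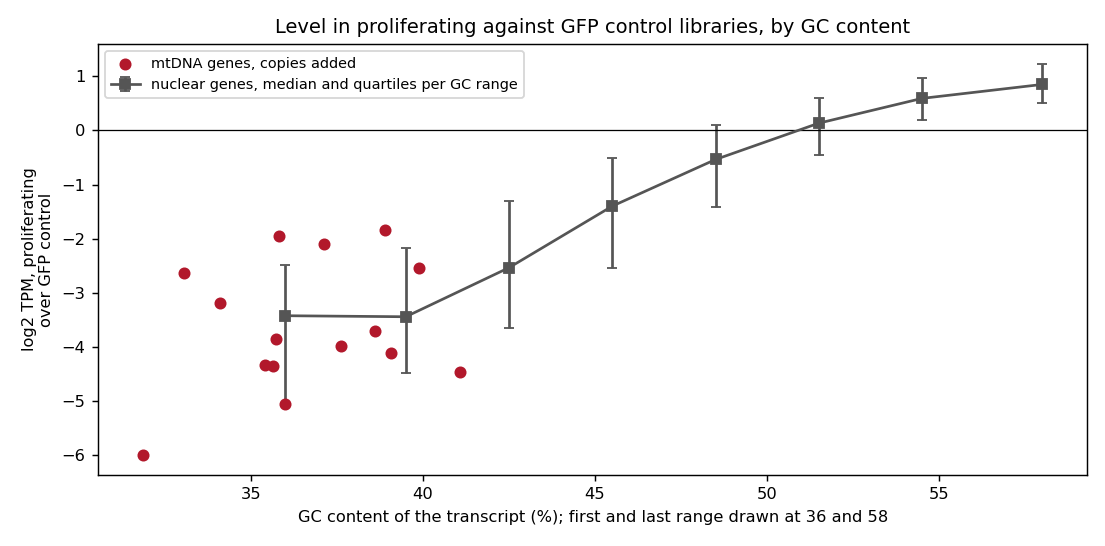
Log2 ratio of mean TPM in proliferating over GFP control libraries against GC content of the transcript, for the 15 mtDNA genes with copies added (red) and for nuclear genes as the median and quartiles of each GC range (grey squares). The mtDNA genes lie between -6.01 and -1.84, in the range of GC where the nuclear median was -3.41.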

How the data were processed

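The authors quantified 14 poly-A libraries with salmon, per the deposited file names, in 2 separate tables (8 quiescent and proliferating, 6 Yme1l KO and GFP control libraries). The salmon version and annotation release are not given in the sources used here, and the submitters' processing notes name GRCm39, R 4.0.3 and DESeq2 1.30.1. Columns were tied to samples by name and, for proliferating libraries numbered differently in the labels, by the sample ID in the authors' sample sheet. The TRIzol extraction and stranded TruSeq kit are per the labels' protocols. The authors deposited estimated counts, TPM values and estimated counts scaled from TPM. Their deposited test tables hold log2 fold changes, adjusted p-values and a mean count signal. The signal was not used. Depth was 6475099 to 10320736 counts per library, and Wilson intervals and the floor of 3 counts cover counting error only, since there are no molecular identifiers.

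Estimated counts were rounded to whole numbers. The 2 groups of a table were fitted together by edgeR 4.0.16 under R 4.3.3 (TMM scaling, filterByExpr, robust quasi-likelihood). The procedure was also run on simulated counts, drawn from its own fitted model with 200 genes changed. Far more genes were called in these data, so that run does not vouch for the calls here. CPM use TMM-adjusted library sizes. The SE was derived from the fold change and its F statistic. TPM were tested by limma 3.58.1 as log2(TPM + 1). Ratios across tables use TPM + 0.1. Copies were found by aligning GENCODE M21 transcripts with blastn 2.17.0 (identity at least 99% over at least 95% of the copy), and their counts added before the fit. For mt-Co1 and mt-Nd4, whose copies are partial, TPM with copies is the gene's TPM scaled by the summed counts. GC content came from the same transcripts, for 99.9% of tested genes. Alternatives were RLE, library size or nuclear-only scaling, DESeq2 1.42.0, limma, TPM-scaled counts, no filter, GC trend removed, a replicate block and each library left out. The block used only libraries whose replicate number occurs in both groups.

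The text names every mt- gene, Yme1l1, Tfam, Polrmt, Lrpprc, Slc25a33 and, per nuclear list and comparison, the 4 called genes of largest fold change with groups that do not overlap and a mean of at least 5 CPM. The members and lists were chosen with earlier results of these data known. Mtrfr, of the translation list, has no row in the count tables under that symbol and was not analysed here. Chi-square per degree of freedom between libraries of a group was at least 1.71, so no library was counted as a repeat.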

Additional observations from a re-analysis of the deposited data

Results flagged for a closer look

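In groups of 4 libraries, a library was marked when its gap to the nearest other took up most of the group's range (Dixon's test). Chance marks about 1 in 20 groups, and 6 of 110 groups checked were marked. mt-Nd5 in proliferating replicate 1 stood at 656 CPM, above the other proliferating libraries at 589 to 597 CPM. Quiescent replicate 2 stood apart in 3 measures: nuclear genes under 42% GC held 1.03% of its counts, Yme1l1 was at 11.1 CPM and Lrpprc at 19.5 CPM, each above the other quiescent libraries. Mgme1 was at 7.96 CPM in quiescent replicate 3, and Slc25a33 at 25.4 CPM in proliferating replicate 5. Without quiescent replicate 2, mt-Rnr2 was no longer called in quiescent over proliferating (log2 0.77, adjusted p = 0.11).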

How the results depend on the processing

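In Yme1l KO over GFP control, the calls of mt-Nd6 and of 13 of the 15 mtDNA genes higher with copies added kept their side under the GC correction. From own counts, mt-Co2 and mt-Atp6 turned sign with copies added (0.24 and 0.18) and with the GC trend removed as well (0.29 and 0.21). mt-Atp6 also turned in limma (0.015), with the GC trend removed alone (0.028) and with the replicate block (0.016). The transcription and replication list fell to 8 calls in DESeq2, 8 in limma and 7 in TPM-scaled counts, the modification list to 3 in DESeq2, and the messengers whose shares did not overlap to 3 without copies. Over all genes the calls fell from 6509 of 12625 to 5042 of 21563 in DESeq2, 5002 of 12625 in limma and 4792 of 12931 in TPM-scaled counts.

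In quiescent over proliferating, 2 mtDNA genes were called, against 1 with library-size scaling, 4 in DESeq2, 1 with no filter, 1 with the GC trend removed, and 1 with copies added and GC removed. Over all genes 8010 were called, against 8043, 7824, 8821, 8132 and 8136 in the same order. DESeq2 and the fit with no filter took in 20940 genes, where the main fit took in 12245. Yme1l1 lost its call with library-size scaling (0.71), limma (0.62), TPM-scaled counts (1.22) and GC removal (0.42). Signs turned with GC removal for mt-Co1 (-0.050), mt-Co2 (-0.27), mt-Atp6 (-0.11), mt-Nd5 (-0.33) and mt-Nd6 (-0.39), and with copies added and GC removal for mt-Nd1 (-0.0025), mt-Co1 (-0.060), mt-Nd5 (-0.33), mt-Nd6 (-0.40) and mt-Nd4l (0.16). They turned with library-size scaling for mt-Co2 (-0.025), mt-Nd5 (-0.050) and Lrpprc (-0.038), and with copies added for mt-Co3 (0.33), mt-Nd3 (0.23) and mt-Nd4l (0.46). The cause was not tested.

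The mean mitochondrial share was 10.6% in Yme1l KO and 9.09% in GFP control libraries by TPM or TPM-scaled counts, and 5.82% and 4.90% with copies added. By TPM or TPM-scaled counts it was 0.838% in quiescent and 0.720% in proliferating libraries, and 0.665% and 0.592% with copies added.

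Same-numbered libraries did not deviate together (correlations of -0.057 to 0.002 for Yme1l KO and GFP control, -0.33 to -0.008 for quiescent and proliferating), and the main fits used no pairing. Differently numbered quiescent and proliferating libraries had correlations of -0.332 to 0.461. So few same-numbered pairs cannot exclude a shared animal or culture behind a number. With the replicate block, 12 mtDNA genes were called in Yme1l KO over GFP control, mt-Co3 and mt-Nd3 among them (adjusted p = 0.000554 and 0.0420), and 3 in quiescent over proliferating. Over all genes the block called 6252 and 6529. In quiescent over proliferating it used only numbers present in both groups, which left out quiescent replicate 3 and proliferating replicate 5. That smaller fit gave 9 modification and 6 translation genes and Yme1l1 at 0.74, with Fastkd5 and Mtif3 not called (adjusted p = 0.155 and 0.101). mt-Nd3 stood at 0.067. mt-Co3, not called in the main fit, was called higher from its own counts at 0.52 (adjusted p = 0.000469). Without a block, leaving out either library alone already turned mt-Co3 positive (0.16 and 0.17). The block and the left-out libraries cannot be told apart here.

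Leaving out each library in turn gave, for Yme1l KO over GFP control, 8 to 11 mtDNA genes called (13 to 14 with copies), 6 to 9 modification genes, 6 to 10 messengers without overlap, and log2 ranges of -0.11 to 0.052 for Polrmt, -0.19 to 0.13 for mt-Atp6, -0.10 to 0.20 for mt-Atp8 and -0.35 to 0.10 for mt-Co2. For quiescent over proliferating it gave 1 to 2 mtDNA genes called (1 to 3 with copies), 0 to 1 messenger without overlap, and 0.46 to 1.05 for Yme1l1, -0.076 to 0.34 for Lrpprc, -0.088 to 0.56 for mt-Co2, -0.435 to 0.17 for mt-Co3, -1.94 to 0.39 for mt-Nd3 and -0.067 to 0.48 for mt-Nd6. Over all genes these fits called 5571 to 6387 genes in Yme1l KO over GFP control and 7505 to 8003 in quiescent over proliferating, from own counts. With a library left out, groups fail to overlap by chance more often than with all libraries. Depth limits mt-Nd6 in quiescent and proliferating libraries, which held 12 to 50 of its counts.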
